A study of Mus musculus with 6 samples.

Results

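The 10 enzyme genes described here make up the pentose phosphate pathway and its exit into nucleotide synthesis in mouse cells: G6pdx, H6pd, Pgls and Pgd of the oxidative branch, Rpia, Rpe, Tkt and Taldo1 of the non-oxidative branch, and Prps1 and Prps2, which make phosphoribosyl pyrophosphate (PRPP). They were found by gene symbol among the 19179 genes listed, and all 10 were present. The genes were grouped by function, but with earlier results of this same comparison known, in which Pgls stood among the largest decreases. Their levels, changes and calls are therefore given as a description. The samples were clones of 4T1, a mouse mammary carcinoma line derived from BALB/C mice, each grown for 14 days from a well that received a single cell. Messenger RNA was sequenced from 3 libraries of clones that carry the tissue label breast cancer stem cell (stem-labelled here), and 3 of clones with the label breast cancer cell (other here). No treatment or genetic change is given for either kind. SC and NSC are the short names of the kinds, left undefined. The labels mention 3 independent experiments and say neither by what test clones were sorted into kinds nor whether the 10 clones collected of each kind were pooled into 1 library, so that p-values measure the spread between these libraries.

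The pentose phosphate pathway diverts glucose 6-phosphate away from glycolysis. Its oxidative branch reduces NADP+ to NADPH, the electron donor for fatty acid synthesis and for the glutathione and thioredoxin systems, and ends in ribulose 5-phosphate. The non-oxidative branch interconverts sugar phosphates reversibly, which links ribose 5-phosphate to the fructose 6-phosphate and glyceraldehyde 3-phosphate of glycolysis. PRPP synthetases then activate ribose 5-phosphate for purine, pyrimidine and NAD synthesis. Proliferating tumour cells are known to draw on both products.

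One enzyme gene stood far apart from the rest. Pgls, the lactonase of the oxidative branch, was 27.6-fold higher on average in the other clones than in the stem-labelled clones. Its neighbours in the same branch, G6pdx and Pgd, overlapped between the kinds of clone. H6pd, the enzyme that runs the first steps of the branch inside the endoplasmic reticulum, was 2.53-fold higher in the stem-labelled clones. The non-oxidative enzymes Tkt and Taldo1 were 2.68-fold and 1.75-fold higher in the other clones, and both PRPP synthetase genes overlapped. Levels are RPKM, that is, reads divided by the length of the gene and by a library total that the authors set. The folds and overlaps given here hold on that scale. Per 1000000 reads in genes, Tkt overlapped between the kinds of clone (406 to 616 stem-labelled, 567 to 977 other). Taldo1 overlapped too (135 to 194 and 118 to 219). G6pdx, Pgd, Rpe and Prps1 then did not overlap and were higher in the stem-labelled clones, G6pdx at 113 to 154 against 44.9 to 77.4. For Rpe the gap was narrow (13.7 to 22.5 stem-labelled, 6.77 to 13.3 other). Pgls and H6pd kept their directions without overlap. The share of all genes that do not overlap on this scale was not computed, so nothing is read from this. The deposited length exceeds the longest annotated transcript by unlike amounts, from 1993 against 1965 bases for Prps1 to 6533 against 3223 for Tkt. Levels of different genes therefore compare only roughly and are not transcript abundances. Since these are bulk samples, fewer cells that express a gene and less RNA per cell cannot be told apart.

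Reads in genes, recovered from the deposited values, ranged from 21196572 to 22838870 for stem-labelled clones and from 15357608 to 16830762 for other clones. Divided by the total behind the deposited RPKM, they came to 0.658 to 0.757 for stem-labelled clones and 1.23 to 1.53 for other clones, so the scale itself differs between the groups, and its part in the changes below was not tested. Changes are log2 differences of RPKM + 1, stem-labelled minus other, with the standard error of limma, fitted over 10097 genes, and a gene is called where the Benjamini-Hochberg adjusted p is under 0.05. All 10 enzyme genes were tested, and the lowest value of any of them in any library was 2.44 RPKM. Of the 10, 1 was called higher (H6pd), 3 were called lower (Pgls, Tkt and Taldo1) and 6 were not called. In the same fit 29.9% of all genes tested were called higher, 25.4% lower and 55.2% in either direction. The groups did not overlap for 5 of the 10, with stem-labelled clones below for 4 (Pgls, Rpia, Tkt and Taldo1) and above for 1 (H6pd). Among all genes tested 63.5% did not overlap, 27.8% with stem-labelled clones below and 35.7% above. Once trends with gene length and GC content were subtracted, 47.8% of all genes were called, with 2 of the 10 higher and 4 lower. On rescaling to the reads summed over genes 58.7% were called higher and 12.3% lower, with 5 and 1 of the 10. The median change was -0.23 for the 10 genes and 0.11 for all genes tested. Because the genes were chosen with this comparison known, nothing is read from these shares.

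**Figure D1:**
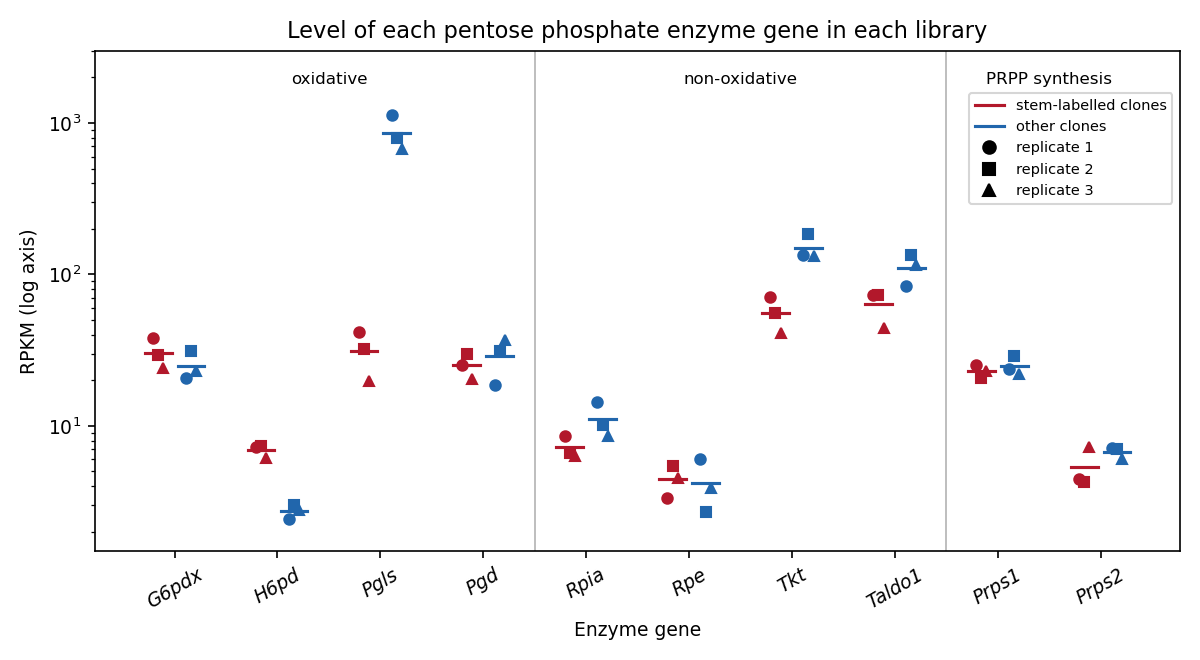
RPKM on a log axis for each of the 10 enzyme genes in each library, red for stem-labelled and blue for other clones, with marker shape for the replicate number and a short line at the mean of 3 libraries. Pgls lies between 19.7 and 42.0 RPKM in the stem-labelled libraries and between 675 and 1129 RPKM in the others, while G6pdx, Pgd, Rpe, Prps1 and Prps2 overlap.

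Promoter sequences are shown for Pgls, H6pd and Tkt, whose calls held in at least 18 of the other settings tried, and for G6pdx, whose level overlapped while that of its partner Pgls did not. Each runs from 250 bases before to 50 bases after a RefSeq transcript start on GRCm38.p6. All 10 genes matched the RefSeq promoter table, with 11 promoters. Capitals mark matches on either strand to the core of the antioxidant response element bound by NRF2 (TGACNNNGC), the E-box bound by MYC (CACGTG), the GC box (GGGCGG) and the CCAAT box (CCAAT). The windows are chr8:71591934-71592233 on the plus strand, chr4:150003187-150003486 on the minus strand, chr14:30548881-30549180 on the plus strand and chrX:74428831-74429130 on the minus strand.
Pgls: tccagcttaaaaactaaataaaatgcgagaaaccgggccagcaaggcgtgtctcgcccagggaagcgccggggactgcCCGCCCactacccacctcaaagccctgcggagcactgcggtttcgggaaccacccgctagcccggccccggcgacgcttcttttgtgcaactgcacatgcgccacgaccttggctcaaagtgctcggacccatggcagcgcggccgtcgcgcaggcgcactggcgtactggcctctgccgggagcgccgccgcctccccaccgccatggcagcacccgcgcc
H6pd: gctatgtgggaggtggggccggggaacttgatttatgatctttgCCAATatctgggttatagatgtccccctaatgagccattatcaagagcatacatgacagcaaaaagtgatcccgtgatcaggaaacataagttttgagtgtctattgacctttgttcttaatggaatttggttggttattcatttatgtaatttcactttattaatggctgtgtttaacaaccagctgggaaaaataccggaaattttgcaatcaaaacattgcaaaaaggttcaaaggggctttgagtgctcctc
Tkt: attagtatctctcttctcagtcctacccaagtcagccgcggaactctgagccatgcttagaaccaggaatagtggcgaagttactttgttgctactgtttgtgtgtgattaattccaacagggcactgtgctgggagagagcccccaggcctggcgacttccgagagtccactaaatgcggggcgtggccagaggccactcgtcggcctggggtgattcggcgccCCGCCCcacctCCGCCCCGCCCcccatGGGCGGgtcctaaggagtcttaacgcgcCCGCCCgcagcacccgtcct
G6pdx: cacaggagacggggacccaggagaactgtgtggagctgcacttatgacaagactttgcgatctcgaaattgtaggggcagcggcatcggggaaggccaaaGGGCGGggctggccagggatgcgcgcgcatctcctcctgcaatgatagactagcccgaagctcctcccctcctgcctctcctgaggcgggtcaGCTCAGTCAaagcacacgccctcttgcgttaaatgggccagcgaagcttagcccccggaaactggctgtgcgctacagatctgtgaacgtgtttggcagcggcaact

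The Pgls window held 1 GC box, which starts 172 bases before the transcript start, and no match to the other motifs, with a GC content of 67.3%. The Tkt window held 5 GC boxes, 3 of them within 25 bases before the start, and the H6pd window only a CCAAT box 206 bases before the start, with a GC content of 39.3%. The RefSeq starts of all 4 printed windows lie inside the genes as the files place them. For H6pd the whole window does, since it ends at 150003486 and the 5' end of the gene is at 150009023. Its motifs and GC content are therefore those of an internal start. The Tkt window too lies within its gene, from 30548881, where the gene begins at 30548359. So does the G6pdx window, which ends at 74429130, where the 5' end of the gene is at 74429194. The motifs of the Tkt and G6pdx windows therefore also lie inside the genes as placed. G6pdx held an antioxidant response element core that starts 57 bases before its start, and 1 of 2 Pgd windows held one 3 bases after its start. That core was in 2 of the 11 windows of these genes and in 12.4% of all 32851 windows of the table. The E-box was in none of the 11 and in 7.15% of all, the GC box in 8 of 11 and 35.7% of all, and the CCAAT box in 5 of 11 and 37.4% of all. A match is a match of letters, and binding was not measured.

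G6pdx encodes glucose-6-phosphate dehydrogenase, the committed and rate-setting first enzyme of the pathway. It stood at 37.8, 29.4 and 24.1 RPKM in stem-labelled replicates 1 to 3 and at 20.6, 31.0 and 23.0 RPKM in the other replicates 1 to 3. The groups overlapped, with means of 30.5 ± 6.89 and 24.9 ± 5.48 RPKM (SD, n = 3 each) and a change of 0.28 ± 0.25 that was not called. On rescaling to the reads summed over genes it was 1.19 and was called higher (limma adjusted p = 0.00189). The gene (ENSMUSG00000031400) lies on chromosome X, 74409483 to 74429194, minus strand, on the GRCm38 build. It shares 418 exon bases with Ikbkg on the opposite strand, and 7.65% of the 50-base stretches of its longest transcript also occur in its retrogene G6pd2. Ikbkg had 3321 reads over the stem-labelled libraries and 660 over the others, where G6pdx had 8458 and 2656, so reads of the shared bases may belong to either. G6pd2 had 2 reads in all, both in replicate 1 of the stem-labelled clones.

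Pgls encodes 6-phosphogluconolactonase, the second enzyme, which hydrolyses the lactone made by G6pdx. Its levels were 42.0, 32.4 and 19.7 RPKM in the stem-labelled replicates and 1129, 791 and 675 RPKM in the other replicates. Every stem-labelled library was below every other library, and the nearest values differed by more than the range within either group. The means were 31.4 ± 11.2 and 865 ± 236 RPKM (SD, n = 3 each), and the change of -4.77 ± 0.34 was the ninth most negative of all genes tested. The values rest on 2388 to 4508 reads per stem-labelled library and 25640 to 50739 per other library. In rank of level among all listed genes, Pgls was at positions 120, 143 and 202 in the other libraries and at 1162, 1479 and 2130 in the stem-labelled ones. It was called lower under each of the 19 other settings tried, with changes from -5.01 to -3.84.

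The Pgls gene (ENSMUSG00000031807) lies on chromosome 8, 71592176 to 71601092, plus strand. Its deposited length of 3770 bases is the union of annotated exons and is longer than the 2688 bases of its longest annotated transcript. No 50-base stretch of that transcript occurs in another annotated gene. It shares 776 exon bases with Fam129c on the same strand, which had 311 reads over the stem-labelled libraries and 49 over the others. Slc27a1, a fatty acid transporter gene that ends 5468 bases before it, changed by 0.49 (limma adjusted p = 0.392). Colgalt1, a collagen galactosyltransferase gene that starts 9932 bases after it, rose by 0.78 (limma adjusted p = 0.0133). Unc13a, a gene of synaptic vesicle release, lies on the opposite strand, and its span overlaps the end of Colgalt1. Its change was -1.14 (limma adjusted p = 0.00113). Its levels were 0.337, 0.368 and 0.381 RPKM in the stem-labelled and 2.31, 2.44 and 1.38 RPKM in the other replicates. Unc13a thus passed the filter of 1 RPKM in 3 libraries only through the other clones, and nothing is read from its call.

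Pgd encodes 6-phosphogluconate dehydrogenase, the third enzyme, which yields the second NADPH and ribulose 5-phosphate. It stood at 25.1, 29.7 and 20.5 RPKM in the stem-labelled replicates and 18.5, 31.1 and 36.9 RPKM in the other replicates. The groups overlapped, and the change of -0.15 ± 0.28 was not called. Pgd (ENSMUSG00000028961) lies on chromosome 4, 149149991 to 149166771, minus strand. After subtracting trends with gene length and GC content its change was -0.93 and was called lower, while on rescaling to the reads summed over genes it was 0.75 and was called higher, so no direction is given for Pgd.

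H6pd encodes hexose-6-phosphate dehydrogenase, which carries out both the dehydrogenase and the lactonase step within the endoplasmic reticulum and supplies NADPH there. It stood at 7.30, 7.37 and 6.13 RPKM in the stem-labelled replicates and 2.44, 3.01 and 2.77 RPKM in the other replicates. Every stem-labelled library was above every other library, and the change was 1.08 ± 0.18. H6pd (ENSMUSG00000028980, chromosome 4, 149979475 to 150009023, minus strand) was called higher under all 18 other settings in which it was tested, with changes from 0.77 to 1.83. It was not tested where a mean of 5 RPKM was required. Its level was below that of G6pdx in every library of both groups.

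**Figure D2:**
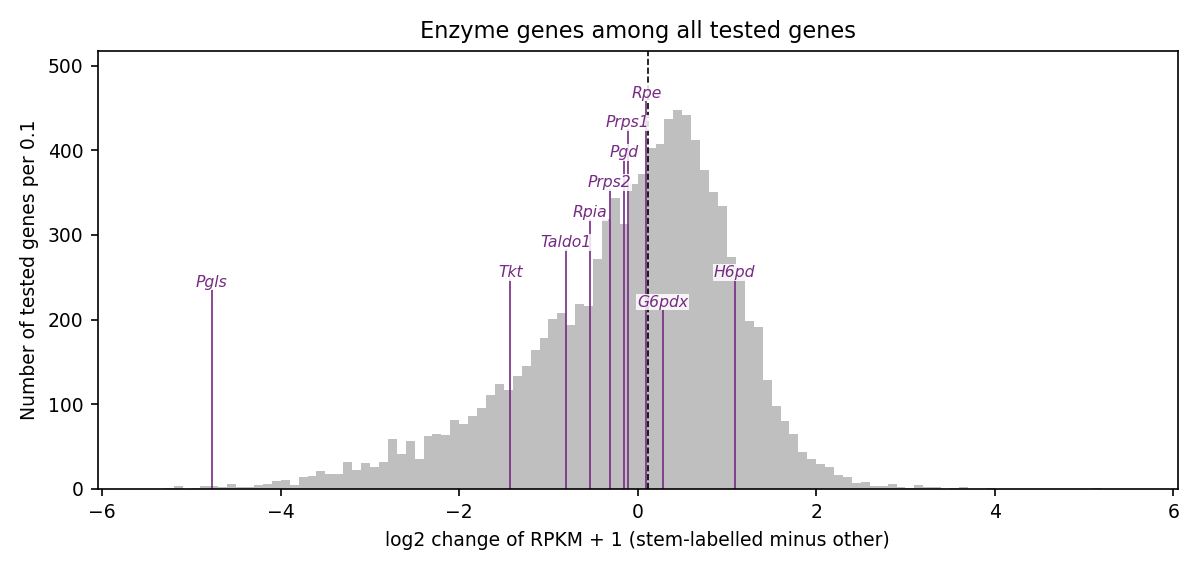
Histogram of the log2 change of RPKM + 1 (stem-labelled minus other) of 10097 tested genes in steps of 0.1, with a purple line at each enzyme gene and a dashed line at the median of all genes, 0.11. Pgls at -4.77 lies in the far lower tail, while the other 9 lie between -1.43 and 1.08.

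In the non-oxidative branch, Tkt encodes transketolase, which transfers carbon pairs between sugar phosphates with thiamine pyrophosphate as cofactor. It stood at 71.4, 55.7 and 41.0 RPKM in the stem-labelled replicates and 134, 185 and 133 RPKM in the other replicates. The groups did not overlap, with means of 56.0 ± 15.2 and 150 ± 29.6 RPKM and a change of -1.43 ± 0.28. Tkt (ENSMUSG00000021957) lies on chromosome 14, 30548359 to 30574722, plus strand, and its call held in 18 of 19 other settings. The exception was rescaling to the reads summed over genes, where its change was -0.50 and was not called, while the median of all genes moved to 0.86.

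Taldo1 encodes transaldolase, which moves a dihydroxyacetone unit between sugar phosphates. It stood at 72.6, 73.2 and 44.4 RPKM in the stem-labelled replicates and 83.3, 135 and 115 RPKM in the other replicates. The groups did not overlap, but the nearest values were close, and the change of -0.81 ± 0.29 passed the threshold by little. Without any of 5 of the 6 libraries the call was lost, with limma adjusted p from 0.0555 to 0.13, and it held without replicate 1 of the other clones. Taldo1 (ENSMUSG00000025503, chromosome 7, 141392199 to 141402968, plus strand) is a short gene, 1998 bases as deposited, and 35.8% of all genes of 1790 to 2425 bases were called lower. On rescaling to summed reads its change was 0.12. Of the 50-base stretches of its longest transcript 10.9% also occur in Gm17823.

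Rpia encodes ribose-5-phosphate isomerase, which turns ribulose 5-phosphate into the ribose 5-phosphate of nucleotides. It stood at 8.58, 6.66 and 6.37 RPKM in the stem-labelled replicates and 14.4, 10.1 and 8.60 RPKM in the other replicates. The groups were separated only by the gap between 8.58 and 8.60 RPKM, and the change of -0.53 ± 0.24 was not called. Without replicate 3 of the other clones it was -0.68 and called lower (limma adjusted p = 0.0463). After the length and GC correction it was -1.09 and was called lower, and on rescaling it was 0.31. For Rpia 5.4% of the 50-base stretches of the longest transcript occur in other genes. Rpe encodes the epimerase that makes xylulose 5-phosphate, the donor for transketolase. It had the lowest mean level of the non-oxidative enzymes, at 3.34, 5.43 and 4.56 RPKM against 6.04, 2.68 and 3.89 RPKM, with groups that overlapped and a change of 0.10 ± 0.27. After the length and GC correction its change was 0.80, and on rescaling it was 0.86, both called higher. Rpe rests on 104 to 513 reads per library and shares 558 exon bases with Kansl1l on the opposite strand, which had 477 reads over the stem-labelled libraries and 93 over the others.

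Prps1 and Prps2 encode PRPP synthetases, which transfer pyrophosphate from ATP to ribose 5-phosphate. Prps1 stood at 25.1, 20.6 and 23.1 RPKM in the stem-labelled replicates and 23.9, 28.9 and 21.9 RPKM in the other replicates, with a change of -0.11 ± 0.21 that was not called. On rescaling it was 0.79 and was called higher (limma adjusted p = 0.0146). Prps2 stood at 4.42, 4.29 and 7.29 RPKM against 7.13, 7.05 and 6.0 RPKM, with a change of -0.32 ± 0.23 that was not called, and replicate 3 was the highest stem-labelled value and the lowest other value. Prps1 was above Prps2 in every library, by 3.17-fold to 5.66-fold in the stem-labelled and 3.36-fold to 4.10-fold in the other libraries. Of the 50-base stretches of the Prps1 transcript 10.1% also occur in the retrogene Prps1l3, which was listed at 6.17 to 16.1 RPKM, so reads may be split between them. Both synthetase genes lie on chromosome X.

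Within a library, the ratio of 2 genes does not depend on the library total, but it still carries the trend with gene length described below. Pgls and G6pdx had nearly equal RPKM in the stem-labelled libraries, with ratios of 1.11, 1.102 and 0.815. In the other libraries the ratios were 54.9, 25.5 and 29.4. Pgls made up 9.98% to 14.1% of the summed RPKM of the 10 genes in stem-labelled libraries, against 64.6% to 78.4% in the others. H6pd over G6pdx was 0.193 to 0.254 in the stem-labelled and 0.0970 to 0.121 in the other libraries, and Tkt over Taldo1 was 0.762 to 0.983 and 1.16 to 1.61. Neither of these ratios overlapped between the groups. The share of ratios that do not overlap over all gene pairs was not computed, so nothing is read from this. The ratios G6pdx over Pgd, Prps1 over Prps2 and Rpia over Rpe overlapped. The order of RPKM followed this pattern: Taldo1 and Tkt were the highest of the 10 in every stem-labelled library, and Pgls, Tkt and Taldo1 in that order in every other library. H6pd, Rpe or Prps2 had the lowest RPKM in each library.

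**Figure D3:**
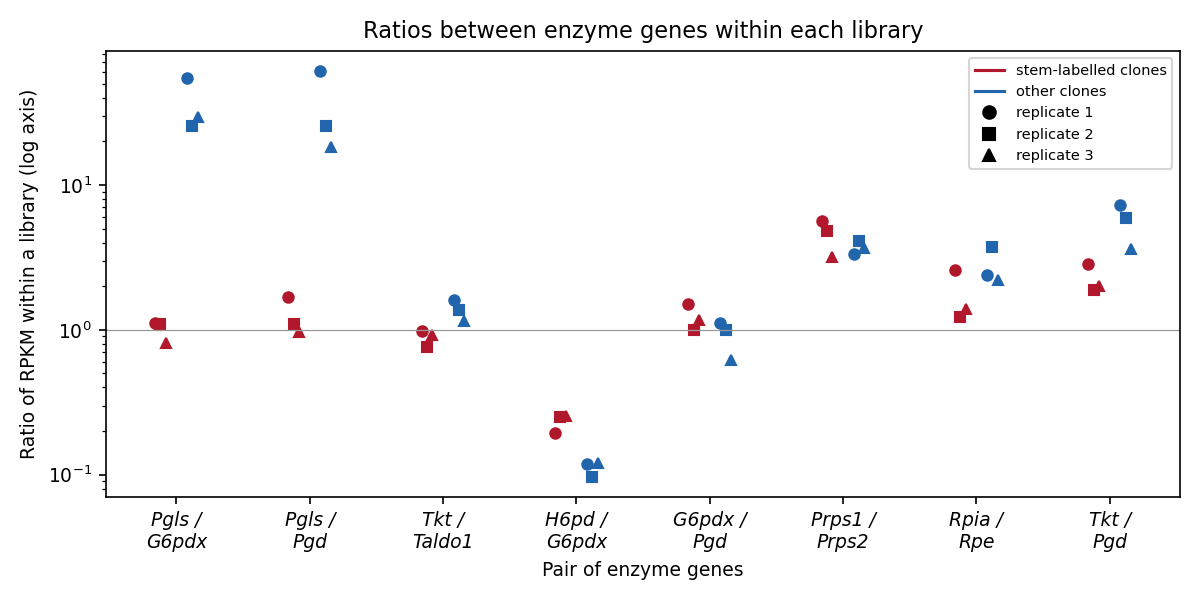
Ratio of RPKM between 8 pairs of enzyme genes within each library, on a log axis, with red for stem-labelled and blue for other clones and marker shape for the replicate number. The ratios of Pgls to G6pdx and to Pgd lie from 0.815 to 1.67 in stem-labelled libraries and from 18.3 to 61.1 in the others.

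Summed over the oxidative branch, RPKM was 93.9 ± 21.3 for stem-labelled against 922 ± 224 for other libraries (SD, n = 3 each). Without Pgls these sums were 62.5 ± 10.3 and 56.4 ± 13 RPKM and overlapped. Per 1000000 reads in genes they were 402.3 ± 34.7 and 200.7 ± 58.0 and did not overlap. The non-oxidative sum was 131 ± 31.0 and 277 ± 49.7 RPKM, most of it Tkt and Taldo1, and did not overlap. Per 1000000 reads in genes it was 748 ± 134 and 936 ± 271 and overlapped. The 9 genes without Pgls summed to 222 ± 40.1 and 365 ± 63 RPKM. Per 1000000 reads in genes they took 1243 ± 150 reads in stem-labelled and 1192 ± 326 in other libraries, which overlapped. Each of these 3 comparisons depends on the scale.

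**Figure D4:**
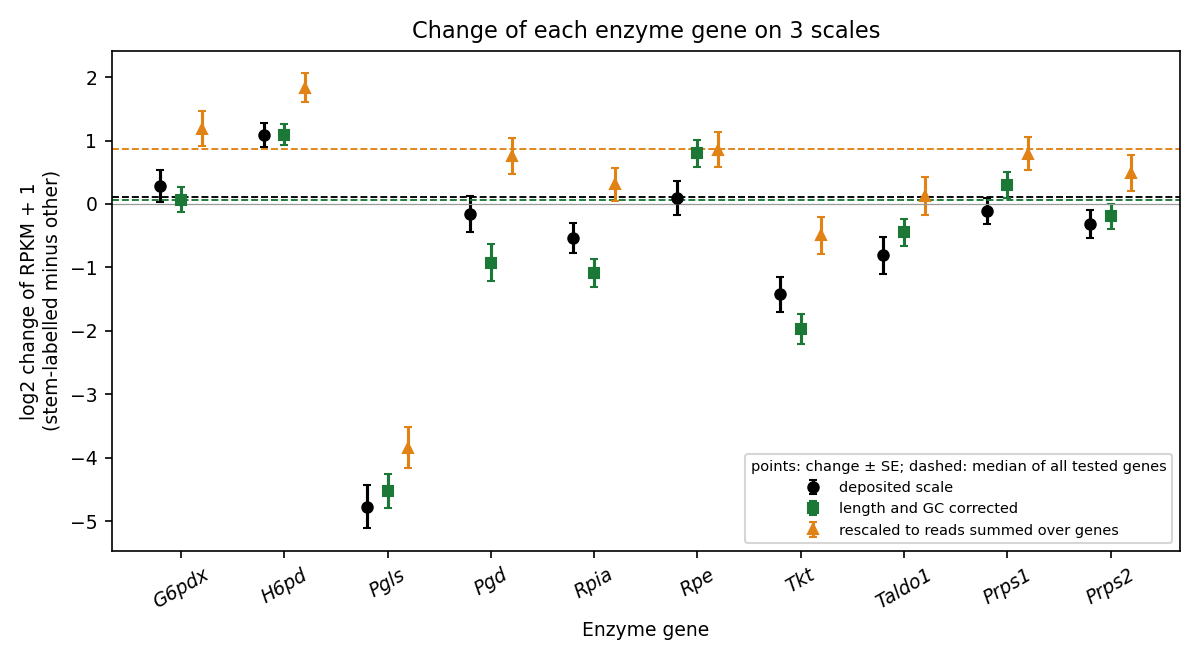
Log2 change ± SE of RPKM + 1 (stem-labelled minus other) of each enzyme gene as deposited (black), after the length and GC correction (green) and after rescaling to the reads summed over genes (orange), with dashed lines at the median of all tested genes on each scale, which are 0.11, 0.07 and 0.86. Pgls stays below -3.8 and H6pd above 1.0 on all 3 scales, while Pgd, Rpia, Taldo1, Prps1 and Prps2 have values on both sides of 0.

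Changes of all genes followed gene length, which bears on these values. The median ran from -1.17 in the decile of shortest genes to 0.71 in that of the longest. Pgls, with 3770 bases, falls in decile 6 (3635 to 4339 bases), whose median change was 0.21 and of which 18.9% were called lower. Tkt falls in decile 9 (6337 to 8322 bases), where 8.71% were called lower, and H6pd in decile 8 (5197 to 6336 bases), where 42.6% were called higher. After the length and GC correction the changes were -4.53 for Pgls, -1.97 for Tkt, 1.09 for H6pd and -0.45 for Taldo1, of which that of Taldo1 was no longer called.

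Genes with the pattern most like that of Pgls were sought over the 6 libraries among tested genes with a mean of at least 5 RPKM, by the root mean square difference of log2(RPKM + 1) centred on each gene's mean. The 5 nearest were Prr7 (0.139), Tmem160 (0.211), Galk1 (0.258), Tmem205 (0.268) and Arhgdig (0.330). Unlike Pgls, the genes Prr7, Tmem160, Galk1 and Tmem205 are short as deposited, at 1360, 814, 1406 and 862 bases. Of all genes of 57 to 1075 bases 61.1% were called lower, and of those of 1075 to 1789 bases 48.5%. The part of length in this likeness was not tested. Galk1, the galactokinase of galactose breakdown, stood at 168, 106 and 61.4 RPKM in the stem-labelled and 5760, 2747 and 2899 RPKM in the other replicates. Prr7, a membrane adaptor gene, stood at 5.53, 3.98 and 2.81 RPKM against 170, 104 and 102 RPKM.

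Genes around the pathway were taken from 6 lists of 85 genes, of which 68 were tested; 14 were called higher and 18 lower, or 20.6% and 26.5%, beside 29.9% and 25.4% of all genes. After rescaling to summed reads 39 were called higher and 4 lower, so the directions below hold on the deposited scale. The lists were drawn up with earlier results of these data known.

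Of 9 tested genes of other sugar-phosphate and PRPP enzymes, 1 rose, 1 fell and 7 did not pass, with a median change of 0.04. Idnk, a gluconate kinase that feeds 6-phosphogluconate into the pathway, fell from 12.1 ± 1.83 to 5.03 ± 1.18 RPKM (-1.12 ± 0.22, limma adjusted p = 0.00228). Dera, an aldolase of deoxyribose phosphate, rose by 0.54 ± 0.20 (limma adjusted p = 0.0440), and its change was -0.32 after the length and GC correction. Prpsap2, a regulatory partner of the PRPP synthetases, stood at 20.6 ± 2.69 against 14.3 ± 2.14 RPKM and was not called (0.50 ± 0.21). Of its 50-base stretches 34% occur in other genes.

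Of 10 tested genes of upper glycolysis, which shares its sugar phosphates with the pathway, 5 fell, 1 rose and 4 did not pass, with a median of -0.85. Hk2, the hexokinase that supplies glucose 6-phosphate, rose from 5.69 ± 0.563 to 13.7 ± 0.747 RPKM (1.14 ± 0.19, limma adjusted p = 0.000925), and its change was 0.42 and not called after the length and GC correction. Pfkl, a phosphofructokinase that commits sugar phosphate to glycolysis, fell from 351 ± 66.0 to 117 ± 11.8 RPKM (-1.57 ± 0.26). Tpi1, the triose phosphate isomerase, fell from 938 ± 276 to 310.1 ± 48.5 RPKM (-1.56 ± 0.34). Gapdh, which takes up the glyceraldehyde 3-phosphate that transketolase and transaldolase also handle, fell by 1.93 on the log2 scale, and 27.2% of its 50-base stretches occur in other genes. On rescaling to summed reads, 1 of the 10 was called lower and 3 higher.

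Among 11 tested genes of other NADPH and NADP+ sources, 3 rose, 2 fell and 6 did not pass, with a median of 0.51. Idh1, the cytosolic NADP-dependent isocitrate dehydrogenase, rose from 18.5 ± 4.63 to 69.5 ± 33.7 RPKM (1.76 ± 0.36, limma adjusted p = 0.00270). Nadk, the kinase that makes NADP+ from NAD+, rose from 31.7 ± 0.671 to 72.5 ± 7.31 RPKM (1.16 ± 0.21), and both were also called after the length and GC correction (1.92 and 0.77). Mthfd2 and Mthfd2l, mitochondrial enzymes of the folate cycle, changed by -0.81 and -1.47, both called lower.

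Of 11 tested NADPH-using reductases, 2 rose, 4 fell and 5 did not pass, with a median of -0.21. Txnrd1, the cytosolic thioredoxin reductase, rose from 21.0 ± 1.77 to 63.0 ± 8.01 RPKM (1.53 ± 0.21, limma adjusted p = 0.000417). Txnrd2, its mitochondrial counterpart, fell from 47.2 ± 24.1 to 4.07 ± 1.25 RPKM (-3.17 ± 0.34, limma adjusted p = 0.000152), the largest change of the list and opposite to that of Txnrd1. Nqo1, a quinone reductase, rose by 1.96 ± 0.48, and Akr1b3, an aldose reductase, fell by 0.85 on the log2 scale.

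Of 18 tested genes of nucleotide synthesis and PRPP use, 5 fell, 2 rose and 11 did not pass, with a median of -0.31. Aprt, which joins adenine to PRPP, fell from 2311 ± 19.2 to 332 ± 89.9 RPKM (-2.83 ± 0.33, limma adjusted p = 0.000203), and its change was -1.19 after the length and GC correction. Its deposited length is 866 bases. Impdh1, an enzyme of guanine nucleotide synthesis, fell from 27.6 ± 3.82 to 6.75 ± 1.55 RPKM (-1.89 ± 0.22). Pfas of purine synthesis rose by 1.06 ± 0.21, and its change was 0.29 and not called after the correction. Uck1, a uridine and cytidine kinase, fell by 0.98 on the log2 scale, and 24.5% of its 50-base stretches occur in other genes.

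Of 9 regulators known for control of these enzymes, 5 rose, 1 fell and 3 did not pass, with a median of 0.55. Nfe2l2, which encodes NRF2, rose from 9.17 ± 1.24 to 24.4 ± 1.05 RPKM (1.33 ± 0.20, limma adjusted p = 0.000549). Mafg, a partner of NRF2 on DNA, rose from 11.1 ± 0.937 to 32.8 ± 2.96 RPKM (1.48 ± 0.20) and shares 124 exon bases with Sirt7 on the same strand, and both were also called after the length and GC correction (0.98 and 1.15). Bach1, a repressor at the same DNA elements, rose by 0.84 ± 0.26, but by 0.18 without a call after the correction. Its levels were 1.398, 1.515 and 3.533 RPKM in the stem-labelled and 0.8555, 0.6242 and 0.5786 RPKM in the other replicates. Bach1 thus passed the filter of 1 RPKM in 3 libraries only through the stem-labelled clones, and nothing is read from its call. Srebf2 of sterol control rose by 0.87 ± 0.27.

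**Figure D5:**
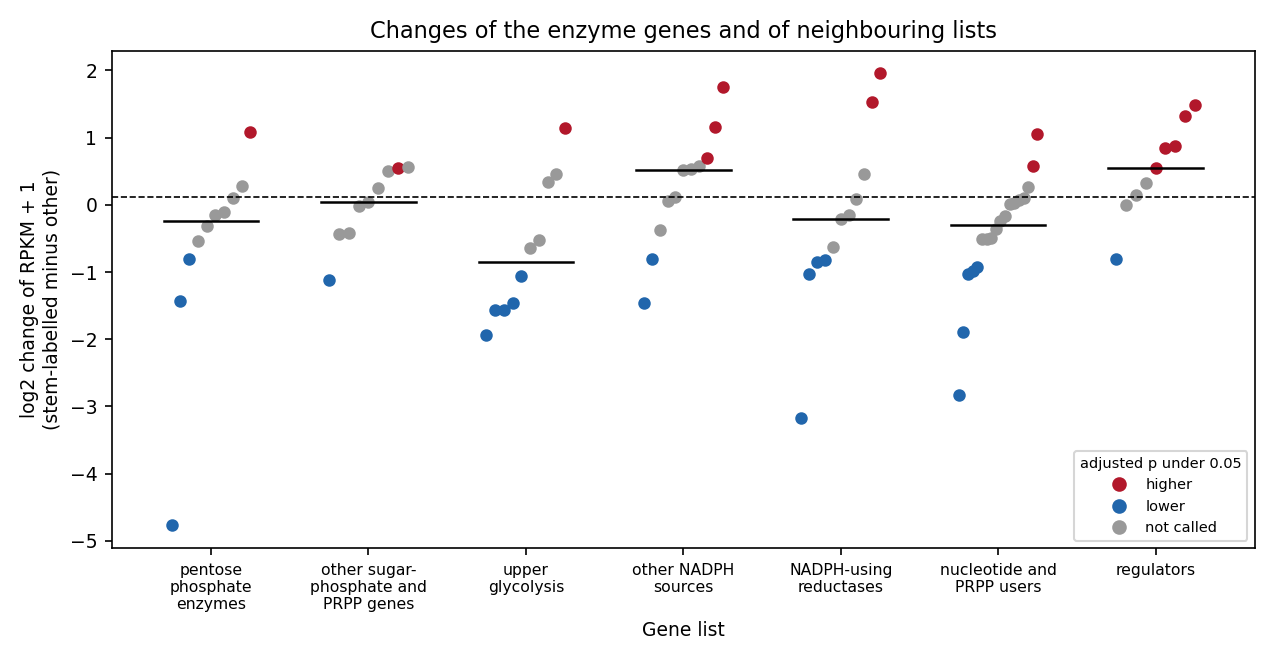
Log2 change of RPKM + 1 (stem-labelled minus other) of each tested gene in 7 lists, with red for genes called higher, blue for genes called lower and grey for genes not called at an adjusted p of 0.05, a bar at each list's median and a dashed line at the median of all tested genes, 0.11. Pgls at -4.77 is the lowest point of the 7 lists, and the list medians lie between -0.85 and 0.55.

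Epithelial markers were read in both kinds of clone, and the marker lists held no list of stem cell markers, so the stem label was not checked. Summed over 8 epithelial markers of 4T1 cells, RPKM was 935 to 1444 in the stem-labelled and 2298 to 3888 in the other libraries. Most of it was Krt8 (means of 648 and 1220 RPKM) and Krt18 (420 and 1480 RPKM). Epcam stood at 55.2 ± 4.78 and 56.2 ± 2.51 RPKM. Of 7 tested, 1 rose (Cdh1), 4 fell (Cldn4, Krt7, Krt18 and Krt19) and 2 did not pass. On rescaling to summed reads 2 were called higher and 4 lower, with changes of 0.90 for Epcam and 0.04 for Krt8. Cldn7 did not pass the filter and was not tested, and Krt19 was at 0.0379 RPKM in stem-labelled replicate 1. Of the leukocyte markers Ptprc, Csf1r, Itgam and Lyz2 were under 1 RPKM in every library, as were Col1a1, Col1a2, Dcn and Acta2 of fibroblasts and Pecam1, Kdr, Tek and Vwf of endothelium. The summed level was 12.6 to 40.2 and 6.09 to 29.5 RPKM for the 5 leukocyte markers listed, most of it Cd68. It was 1.70 to 3.39 and 0.564 to 1.01 RPKM for 5 fibroblast markers, and 0.0597 to 0.152 and 0.410 to 2.89 RPKM for 5 endothelial markers. The part of epithelial marker levels in the changes of the enzyme genes was not tested.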

How the data were processed

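RPKM were deposited by the authors for 19179 genes, with 1 file per library and a gene length in bases. The submitters' processing notes name Bowtie2 2.0.6, TopHat2 2.0.9 and mm9, without roles; the counting program and strand are not given in the sources used here. Of the listed genes, 99.6% had an identifier in GENCODE M21, and of these 80.6% had identical start and end on GRCm38, so coordinates are stated on GRCm38. Value times length was a whole multiple of 1 step per library for 99.0% to 99.95% of values (tolerance 0.01), which returned the reads. Spreadsheet-altered symbols (25) were restored by identifier.

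Groups were compared by limma 3.58.1 (R 4.3.3) with a variance trend, two-sided, on log2(RPKM + 1), over 10097 genes with at least 1 RPKM in at least 3 libraries. It was tested on simulated data. Members, lists, motifs and alternatives were chosen with earlier results of these data known. Named genes were the 10 enzymes, in each list the 4 or fewer with lowest p, and the 5 nearest to Pgls; an overlap of 1 of them with another gene is not reported here. Since the strand of counting is unknown, reads of overlapping genes cannot be told apart. Genes beside or overlapping Pgls, Cdh1 and the other markers were named by position or as markers. The corrections subtracted natural splines (5 degrees of freedom) of log2 length, or of length and transcript GC content, from each library's deviations. The other settings were a replicate block, each library left out, upper-quartile scaling, rescaling to summed reads, no filter or a mean of 5 RPKM, a pseudocount of 0.1, limma without trend or with robust variance, and limma-voom on recovered reads. The correction with GC content, alone and with the block, and the lists under all settings were added after seeing the data.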

Additional observations from a re-analysis of the deposited data

How the results depend on the processing

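Each of 19 other settings was applied to the 10 enzyme genes, the 6 lists and all genes. Pgls, Tkt and G6pdx kept their direction in all 19 and H6pd in the 18 that tested it. G6pdx ran from 0.067 to 1.19 and was called in 1 of the 19. Rescaling to summed reads moved the counts of enzyme genes called higher from 1 to 5 and lower from 3 to 1, those of the lists to 39 and 4 (from 14 and 18), and those of all genes to 5926 and 1245 (from 3014 and 2563). Upper-quartile scaling gave 3896 and 2126 for all genes. With mean RPKM at least 5, 0 enzyme genes were called higher (limma), since H6pd was not tested, and 1405 genes in all. The length and GC correction, added after seeing the data, gave 2 enzyme genes called higher (H6pd and Rpe, at 0.80), also with the block.

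Signs reversed as follows. Leaving out 1 library, Pgd ran from -0.43 to 0.0466 (without replicate 3 of the other clones) and Rpe from -0.13 to 0.34. Pgd was 0.10 with upper-quartile scaling and 0.75 on rescaling. Rpe was -0.033 without replicate 2 of the stem-labelled clones, -0.13 without replicate 2 of the other clones and -0.0012 with limma-voom on recovered reads. Prps1 was 0.14 with upper-quartile scaling, 0.79 on rescaling, 0.44 after the length correction and 0.30 after the length and GC correction, with or without the block. On rescaling Rpia was 0.31, Taldo1 0.12 and Prps2 0.49. The causes were not tested.

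Leaving out 1 library gave 2 to 3 enzyme genes called lower and 9 to 13 list genes called higher, 9 both without replicate 1 of the stem-labelled clones and without replicate 1 of the other clones. Rpia was called lower without replicate 3 of the other clones (-0.68, limma adjusted p = 0.0463).

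With the replicate number as a block 2735 genes were called higher and 2477 lower, 1 and 2 enzyme genes, the call of Taldo1 being lost (limma adjusted p = 0.0554). Same-numbered libraries did not deviate together (r = -0.125, 0.026 and -0.085 over genes), so the block pairs nothing known. Of the 10 genes, Rpe rests on the fewest reads, 104 to 513 per library, and H6pd on 146 to 196 in the other clones.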
